A study of Mus musculus with 9 samples.

Results

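The genes described here are 39 genes of the lysosome, of the vacuolar proton pump (V-ATPase) and of the MiT transcription factors, in murine microglia exposed to glioma-conditioned medium (GCM). They were taken from a list of gene symbols by function, drawn up with earlier results of these data known. Of the 39, 34 were measured by a probe set that carries 1 gene symbol, among 17097 genes measured in this way. Where a gene has several probe sets, the brightest one over the 9 arrays stands for it. Sqstm1 was left out because its probe set carries several symbols, and Atp6v0c, Atp6v1c1, Atp6v1g1 and Neu1 were not analysed here. The 34 measured genes comprised 4 MiT factors, 6 genes of the membrane sector of the pump or its accessory subunit, 6 of its cytosolic sector, 6 lysosomal membrane proteins, 10 lysosomal enzymes and their activators and 2 autophagy genes.

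Microglia were from neonatal (P0-P2) cortices of C57BL/6J mice, and 3 groups of 3 arrays were compared. Control cells received no GCM, GCM LN18 cells were kept for 6 h in medium from LN18 cells, and GCM U87 cells were kept for 6 h in medium from U87-MG cells. LN18 and U87-MG are established human glioblastoma lines. All cells had been plated for 48 h in serum-containing medium, and the labels do not say whether the medium of control cells was also renewed when GCM was added. The replicates of a group come from separate cortical cultures.

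Lysosomes digest material taken up by endocytosis, phagocytosis and autophagy, and microglia rely on them to degrade cell debris and protein aggregates. The V-ATPase acidifies the lysosome: its cytosolic V1 sector hydrolyses ATP and its membrane V0 sector carries protons. Mitf, Tfeb, Tfe3 and Tfec form the MiT family of basic helix-loop-helix leucine zipper factors, which bind E-boxes with the core CACGTG. Many lysosomal and V-ATPase genes have such sites near their transcription start, where they are part of a longer element known as CLEAR. When nutrients are plentiful, the kinase complex mTORC1 at the lysosomal surface keeps Tfeb and Tfe3 in the cytoplasm by phosphorylation, so that the activity of these factors can change without any change of their own mRNA.

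The deposited values are log2 signals, normalized by the authors, and lie between 1.56 and 12.88 with array medians between 3.39 and 3.41. For 100% of the 45141 probe sets, the mean over the 3 groups was the same for each replicate number to within 1e-06, so differences between replicate numbers had been taken out before deposit. The spread within a group is therefore too small, and the test used here is limma's moderated test with the replicate number as a block, which counts 4 residual degrees of freedom in place of 6. Calls were made at a Benjamini-Hochberg adjusted p under 0.05 over all 17097 genes, and calls without the block are given beside them. The linear signals of the 10 measured microglia markers summed to 9643 to 10122 in control arrays, 11764 to 12059 in GCM LN18 and 11293 to 11938 in GCM U87. Among them, Tmem119 and P2ry12 were close to the array median, with control means of 3.88 and 3.44. The rise was uneven: Cx3cr1 had mean log2 signals of 10.28 in control, 11.26 in GCM LN18 and 11.06 in GCM U87. With the block it was called higher in both (limma adjusted p = 0.00827 and 0.0499), as was Tmem119 in GCM LN18 (adjusted p = 0.0390). Trem2 and Ptprc differed by 0.01 and -0.04 in GCM LN18. The summed signal of 5 border macrophage markers, most of it from Mrc1, was 609 to 684 in control, 534 to 578 in GCM LN18 and 526 to 558 in GCM U87, and its part in the results below was not tested. Lyve1, Cd163, Cbr2 and Cd209f, the others of that list, and the astrocyte, oligodendrocyte, neuronal, fibroblast and endothelial, and monocyte and neutrophil markers had mean signals of at most 5.15. In such bulk samples, fewer cells of a type and less RNA per cell cannot be told apart.

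Most of the 34 genes had lower mean signals in GCM than in control, by small amounts. The difference was below 0 for 30 of 34 in GCM LN18, against 51.5% of all genes, and for 31 of 34 in GCM U87, against 51.3%. The median log2 difference of the 34 was -0.09 in GCM LN18 and -0.05 in GCM U87, where the median over all genes was 0.00 in both. With the replicate block, 2 of 34 fell in GCM LN18, Tecpr1 and Atp6v0a1, where 0.339% of all genes were called lower and 0.538% higher, and no member rose. In GCM U87, no member was called, while 8 genes, or 0.0468% of all, were called, each of them higher. An unadjusted p under 0.05 in the lower direction was found for 10 of 34 in GCM LN18 (6.55% of all genes) and for 7 of 34 in GCM U87 (4.76%). All 3 treated arrays were below all 3 control arrays for 21 of 34 in GCM LN18 (12.8% of all genes) and for 12 of 34 in GCM U87 (10.3%). Without the block, 8 of 34 were called lower in GCM LN18 (2.64% of all genes) and 2 of 34 in GCM U87 (0.708%). Both comparisons use the same 3 control arrays, so the results in one medium are not independent of those in the other. The shares of all genes include genes of dim signal, and shares at the signal levels of the members were not computed.

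**Figure D1:**
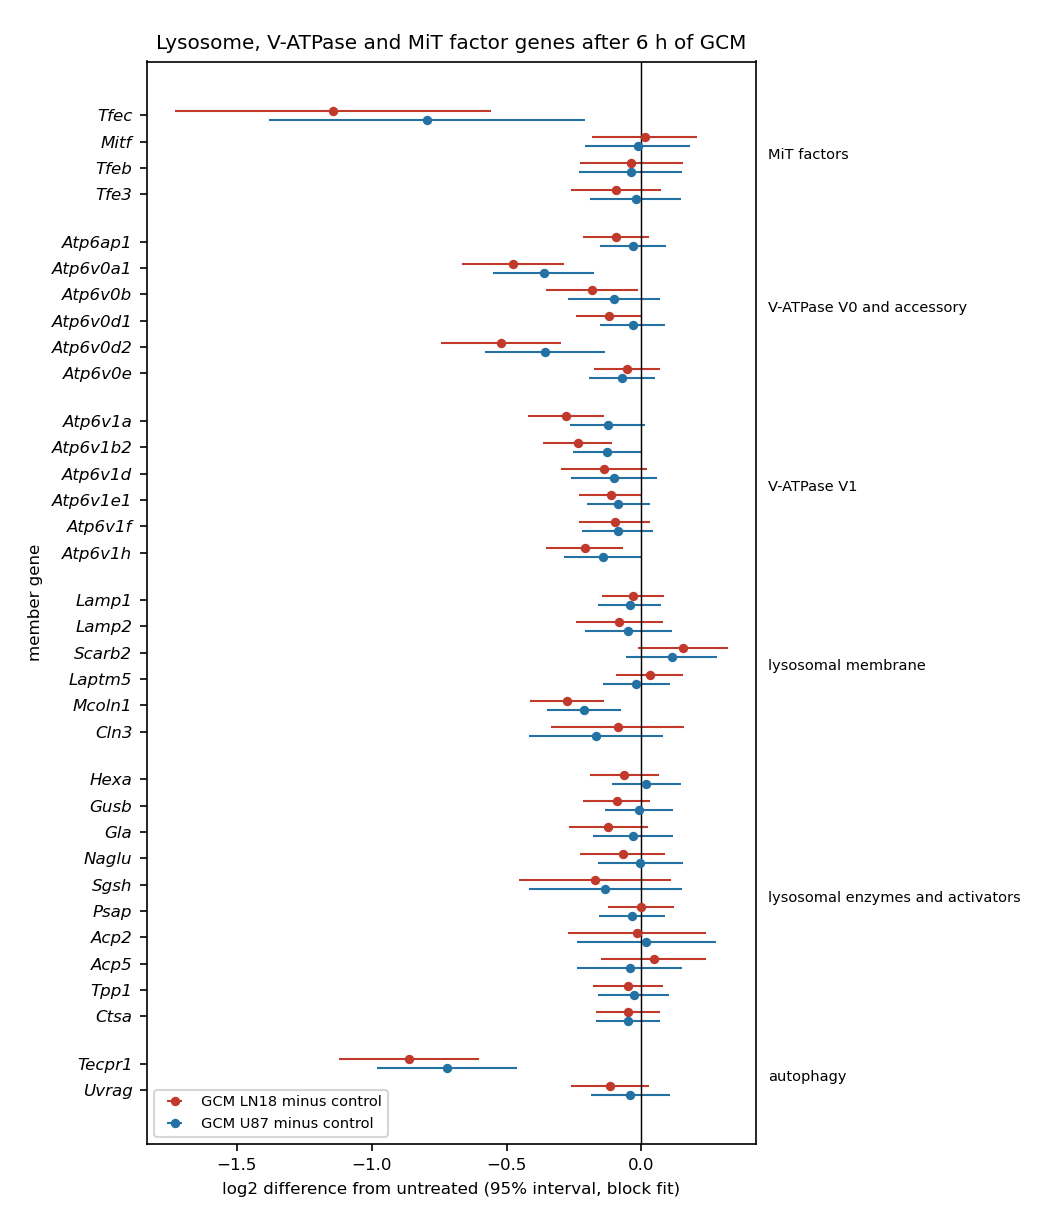
Log2 difference from control for the 34 measured genes, grouped by role, with GCM LN18 in red and GCM U87 in blue; points are estimates from the fit with the replicate block and bars are 95% intervals. Tecpr1, Tfec, Atp6v0d2 and Atp6v0a1 lie farthest below 0, the 12 V-ATPase genes are all below 0 in both media, and the enzymes lie within 0.2 of 0.

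E-boxes with the core CACGTG were more common near the start of these genes than of genes at large. Since many lysosomal and V-ATPase genes are known for such sites, this excess is not independent of how the genes were chosen. A RefSeq promoter window, from 250 bases before to 50 bases after a transcription start (build GRCm38.p6), was at hand for 34 of the 39 genes, 31 of them measured. CACGTG, which reads the same on both strands, was in a window of 11 of these 34 genes, or 32.4%, against 8.09% of 27025 genes. Among the 13605 genes with a window that were also measured on the arrays, the share was higher, 10.2%. By windows, it was in 11 of 46, or 23.9%, against 7.15% of 32851 windows of all genes. The median GC content was 56.7% in the windows of these genes and 52.7% in all windows. The longer TCACGTG, searched on both strands, was in the same number of genes, 11 of 34, against 4.29% of all genes and 5.78% of measured genes. Its palindrome TCACGTGA was in 7 of 34, against 1.12% and 1.67%. The palindrome that has GT before and AC after the core was in 1 gene, Cln3, against 0.37% and 0.566%. TCATGTG, a variant core on either strand, was in 6 of 34, against 4.31% and 3.20%. For 5 of the 34 genes, Atp6v0a1, Atp6v1a, Atp6v1d, Laptm5 and Tfe3, the nearest window belongs to a start more than 100 bases inside the annotated gene, so the outermost start was not searched. The sites of Atp6v1a, Ctsa and Cln3 are at such inner starts, 443, 901 and 2581 bases inside the gene. Each of the longer CACGTG motifs contains the shorter ones, so these counts overlap.

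The 11 windows held 19 CACGTG sites, and 6 genes had more than 1. All 19 were preceded by T or followed by A, which was so for 52.5% of the 2589 sites in all windows, and 9 of the 19 had both. The sequences below show the cores in capitals with 10 bases on either side, on the strand of the gene. They are given for V-ATPase subunits, for the calcium channel gene Mcoln1 and for Lamp1, which had the most sites. Of the 2 sites of Cln3, only the one in that longest palindrome is shown.
Atp6v0b at chr4:117887350-117887375, minus strand, first base of the core 36 bases before the start: gcgcgggggtCACGTGgggtcggcgc
Atp6v0b at chr4:117887332-117887357, minus strand, 18 bases before the start: gtcggcgcatCACGTGcgccggtcag
Atp6v0d1 at chr8:105566052-105566077, minus strand, 3 bases before the start: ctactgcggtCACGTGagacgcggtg
Atp6v0e at chr17:26676389-26676414, plus strand, at base 4 of the transcript: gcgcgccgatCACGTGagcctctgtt
Atp6v1a at chr16:44139375-44139400, minus strand, 131 bases before the start: ttttttaaatCACGTGataggcttaa
Mcoln1 at chr8:3500438-3500463, plus strand, 71 bases before the start: tcgcgcttgtCACGTGttcagttcag
Mcoln1 at chr8:3500464-3500489, plus strand, 45 bases before the start: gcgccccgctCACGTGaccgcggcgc
Lamp1 at chr8:13159090-13159115, plus strand, 61 bases before the start: ggcaagatatCACGTGgtccagcgcc
Lamp1 at chr8:13159106-13159131, plus strand, 45 bases before the start: gtccagcgccCACGTGatgccgactg
Lamp1 at chr8:13159123-13159148, plus strand, 28 bases before the start: tgccgactggCACGTGaccacatcac
Lamp1 at chr8:13159136-13159161, plus strand, 15 bases before the start: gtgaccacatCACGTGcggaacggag
Cln3 at chr7:126583342-126583367, minus strand, 121 bases before the start: cgggtactgtCACGTGacccccaacc

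**Figure D2:**
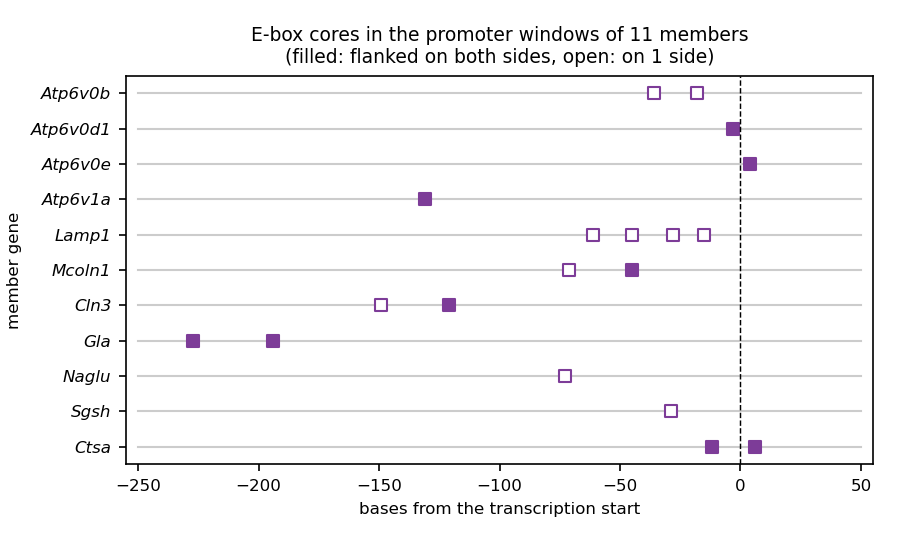
Positions of the 19 CACGTG cores in the promoter windows of 11 genes, in bases from the transcription start, with grey lines for the window searched. Filled squares have T before and A after the core on the gene's strand, open squares have 1 of the 2, and 14 of the 19 sites lie within 100 bases of the start.

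Of the 31 measured genes with a window, those with the largest differences had no CACGTG in the window searched. No window was at hand for Atp6v0d2, Atp6v1b2 and Atp6v1h, so these were not searched. Their differences in GCM LN18 were -0.52, -0.24 and -0.21. The 11 genes with CACGTG had log2 differences from -0.28 to -0.03 in GCM LN18, all 11 below 0, with a median of -0.12. The 20 measured genes with a window but no such site ranged from -1.14 to 0.15, with 16 below 0 and a median of -0.09. In GCM U87, the medians were -0.07 with the site and -0.04 without it. Tecpr1, Atp6v0a1 and Tfec, all without the site, had the lowest differences of the 31 in GCM LN18, although the window of Atp6v0a1 is not at its outermost start. These values are a description of the windows and of the signals, and a match is not evidence that a factor bound there.

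Of the MiT factors, Tfec had the lowest difference and the others, by their brightest probe sets, showed almost none. Tfec, which is expressed mainly in cells of the macrophage lineage, had control signals of 7.33, 6.57 and 6.44 on the log2 scale for replicates 1 to 3. Its signals were 5.24, 5.75 and 5.93 in GCM LN18 and 5.83, 6.08 and 6.04 in GCM U87. Every treated array was below every control array. The control array of replicate 1 was the highest and the GCM LN18 array of replicate 1 the lowest. The log2 difference was -1.14 (SE 0.25) in GCM LN18, which did not pass limma's test with the block (adjusted p = 0.0913) and did without it (adjusted p = 0.0272). With the block it also passed when control replicate 1 was left out, at a smaller difference of -0.73 (adjusted p = 0.0442). Leaving out any other single array, it did not pass, with limma adjusted p from 0.0781 without control replicate 3 to 0.339 without GCM LN18 replicate 2. In GCM U87 it was -0.80 (SE 0.25), with limma adjusted p = 0.413, or 0.139 without the block. Within replicates 1, 2 and 3, the LN18 arrays were below the control arrays by differences of -2.10, -0.82 and -0.51, and the U87 arrays by -1.50, -0.49 and -0.40. The size thus differed more between replicate numbers than between the media. Tfec is represented by 1 probe set.

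Mitf, the founding member of the family, had mean signals of 9.39 ± 0.13 in control, 9.41 ± 0.10 in GCM LN18 and 9.38 ± 0.06 in GCM U87 (SD, n = 3). Its log2 difference in GCM LN18 was 0.01, with a 95% interval from -0.18 to 0.21. The difference was -0.04 for Tfeb, with an interval from -0.23 to 0.15, and -0.09 for Tfe3, with an interval from -0.26 to 0.07. In GCM U87, Mitf, Tfeb and Tfe3 had differences of -0.01, -0.04 and -0.02. A dimmer probe set of Mitf, with a mean signal of 5.64, gave 0.04 in GCM LN18 and 0.29 (SE 0.16) in GCM U87. These values concern mRNA only, and neither the location nor the phosphorylation of the proteins was measured.

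All 12 measured V-ATPase members had mean differences below 0 in both media, and Atp6v0a1 in GCM LN18 was the 1 that passed the test. The 12 had medians of -0.16 in GCM LN18 and -0.10 in GCM U87. In GCM LN18, all 12 had each treated array below each control array, against 12.8% of all genes. All 12 were also lower there within each of the 3 replicate numbers, against 16.7% of all genes. In GCM U87, 7 of 12 had each treated array below each control array, against 10.3% of all genes. Lower within each replicate number were 7 of 12, against 13.3% of all genes. Leaving out any of the 3 replicate numbers, the mean difference over the others stayed below 0 for 12 of 12 in either medium. With the block, 7 of 12 had an unadjusted p under 0.05 in the lower direction in GCM LN18, against 6.55% of all genes. In GCM U87, 4 of 12 had one, against 4.76%. Without the block, 5 of 12 were called lower in GCM LN18 (2.64% of all genes) and 1 of 12 in GCM U87 (0.708%). By mean signal, the 12 lay between percentiles 84.8 (Atp6v0a1) and 98.5 (Atp6ap1) of all genes, so the shares given include many dimmer genes.

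Atp6v0a1 encodes the a1 subunit of the V0 sector, one of the isoforms through which protons pass. Its control signals were 8.39, 8.16 and 8.24, against 7.68, 7.89 and 7.78 in GCM LN18 and 7.87, 7.90 and 7.93 in GCM U87. Control arrays were above all treated arrays, the arrays of the media overlapped each other, and the U87 arrays lay closest together. In GCM LN18 Atp6v0a1 fell by 0.48 log2 units (SE 0.08, limma adjusted p = 0.0480, or 0.00636 without the block), which is a decrease to 0.719-fold. The call is fragile: of 9 fits that each left out 1 array, the adjusted p stayed under 0.05 only without control replicate 2 (0.0455). It was 0.0712 without control replicate 1, 0.0959 without control replicate 3, between 0.160 and 0.211 without each GCM LN18 array and between 0.0628 and 0.0857 without each GCM U87 array. The difference in GCM U87 was -0.36 (SE 0.08), with limma adjusted p = 0.227, or 0.0439 without the block. Its other probe sets gave differences of -0.63, -0.15 and -0.09 in GCM LN18, the last 2 from probe sets with mean signals of 3.14 and 3.94. Its only promoter window belongs to a start 976 bases inside the annotated gene and has no CACGTG. The bases before the outermost start of Atp6v0a1 were not searched here, so its sequence is not shown.

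The other V0 gene with a large difference was Atp6v0d2, the d2 isoform typical of osteoclasts and macrophages. Its signals were 9.73, 9.53 and 9.43 in control, 9.01, 8.99 and 9.12 in GCM LN18 and 9.07, 9.28 and 9.26 in GCM U87. Both treated groups were below control without overlap. The log2 difference in GCM LN18 was -0.52 (SE 0.10), with limma adjusted p = 0.0565, or 0.00983 without the block, and a second probe set gave -0.56. In GCM U87 it was -0.36 (SE 0.10), with adjusted p = 0.317, or 0.0749 without the block. The ubiquitous isoform Atp6v0d1 had a difference of -0.12 in GCM LN18 and -0.03 in GCM U87. Among the remaining genes of this sector, the proteolipid gene Atp6v0b had differences of -0.18 and -0.10, the small subunit gene Atp6v0e -0.05 and -0.07, and the accessory subunit gene Atp6ap1 -0.10 and -0.03, in GCM LN18 and GCM U87.

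In the V1 sector, the largest differences in GCM LN18 were in Atp6v1a, the catalytic subunit, and Atp6v1b2, its partner in the ATPase ring. Atp6v1a had signals of 10.71, 10.71 and 10.74 in control, 10.49, 10.38 and 10.46 in GCM LN18 and 10.56, 10.67 and 10.56 in GCM U87. For Atp6v1b2, the control signals were 10.61, 10.55 and 10.54, those in GCM LN18 were 10.30, 10.33 and 10.38, and those in GCM U87 were 10.43, 10.47 and 10.43. For both genes the order was control above U87 above LN18, with no overlap between any 2 groups. Atp6v1a differed by -0.28 (SE 0.06) in GCM LN18, with limma adjusted p = 0.0862, or 0.00983 without the block, and Atp6v1b2 by -0.24 (SE 0.06), with adjusted p = 0.108, or 0.00989 without it. Their differences in GCM U87 were both -0.13, where that of Atp6v1h was the largest of the sector.

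Atp6v1h, the regulatory H subunit, had signals of 9.51, 9.57 and 9.54 in control, 9.41, 9.26 and 9.33 in GCM LN18 and 9.35, 9.44 and 9.40 in GCM U87. The treated arrays of both media overlapped each other and not the control arrays. Its difference of -0.21 (SE 0.06) in GCM LN18 had limma adjusted p = 0.202, or 0.0338 without the block, and its difference in GCM U87 was -0.14. The stalk subunit genes Atp6v1d and Atp6v1e1 differed by -0.14 and -0.11 in GCM LN18, and Atp6v1f by -0.10, with adjusted p from 0.420 to 0.564. In GCM U87 these 3 genes had differences between -0.10 and -0.09. Of 4 probe sets of Atp6v1e1, 2 gave differences above 0 in GCM LN18, both with dim signals, while those of Atp6v1d all lay below 0.

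**Figure D3:**
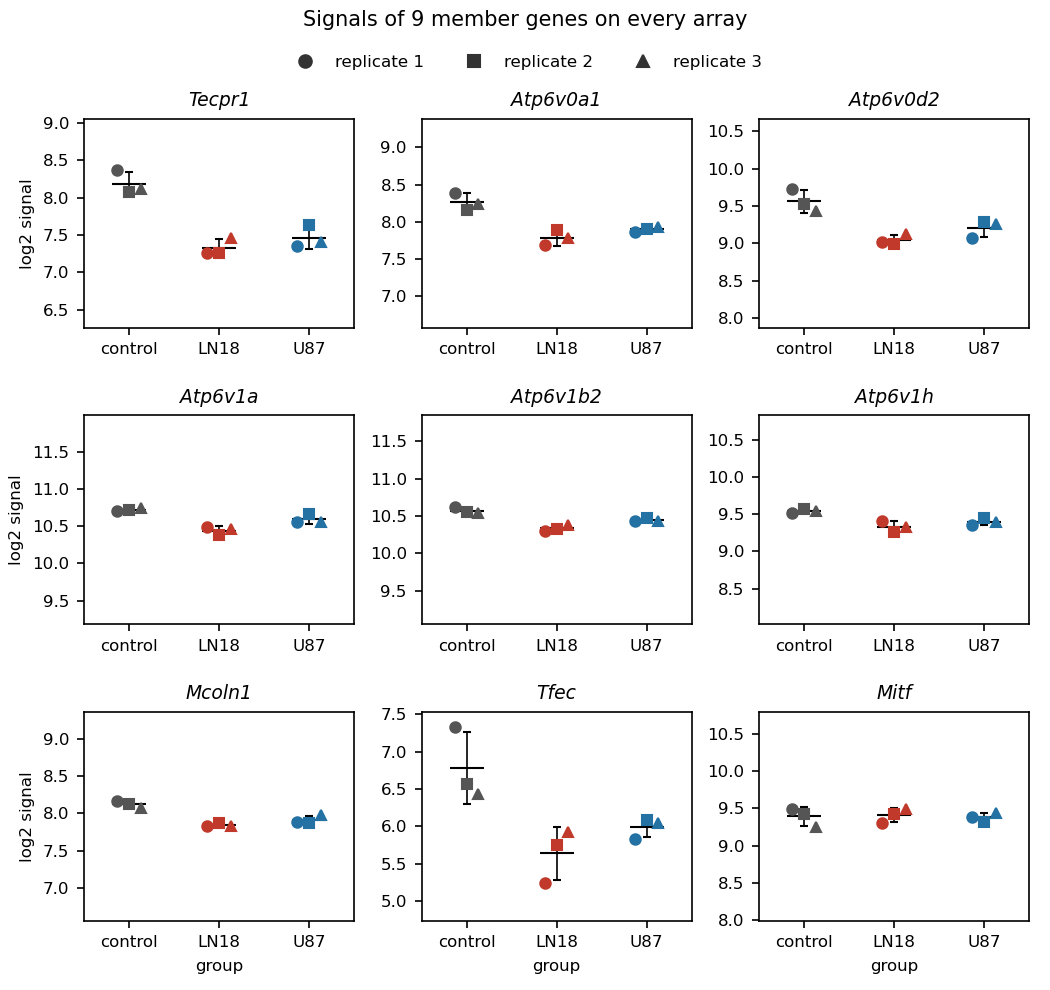
Array-by-array log2 signals of 9 genes in the 3 groups, with the marker shape giving the replicate number and black bars the mean and SD (n = 3); every panel spans the same range of log2 units around the mean of its gene. Treated arrays of the first 8 genes all lie below the control arrays, the spread of Tfec is the widest, and the 3 groups of Mitf overlap.

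Of the 6 lysosomal membrane proteins, 4 had differences below 0 in GCM LN18 and 5 in GCM U87, and none passed the test with the block. Mcoln1, the calcium channel TRPML1, was the 1 gene of 6 with an unadjusted p under 0.05 in each medium. Its signals were 8.17, 8.13 and 8.07 in control, 7.84, 7.88 and 7.83 in GCM LN18 and 7.88, 7.87 and 7.98 in GCM U87, so that the treated arrays were all below the control arrays. The log2 difference was -0.28 (SE 0.06) in GCM LN18, with limma adjusted p = 0.0837, or 0.00906 without the block. It was -0.21 (SE 0.06) in GCM U87, with adjusted p = 0.334, or 0.0503 without the block. All 3 probe sets of Mcoln1 gave differences below 0 in GCM LN18, from -0.28 to -0.15.

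Lamp1, an abundant glycoprotein of the lysosomal membrane, had signals of 11.61, 11.60 and 11.59 in control, 11.57, 11.57 and 11.57 in GCM LN18 and 11.55, 11.56 and 11.56 in GCM U87, a spread that the removal of replicate effects made smaller. Its differences were -0.03 and -0.04, with a 95% interval from -0.15 to 0.08 in GCM LN18. Lamp2, its paralogue, differed by -0.08 and -0.05, and Cln3, the gene mutated in juvenile Batten disease, by -0.09 and -0.17, with overlap of the groups in both. Scarb2, which carries glucocerebrosidase to the lysosome, had the highest difference of all 34 genes by brightest probe set. It was 0.15 in GCM LN18 (limma adjusted p = 0.455) and 0.11 in GCM U87. All 3 LN18 arrays lay above the control arrays, as they did for 11.1% of all genes. A second probe set of Scarb2 gave 0.00 and 0.08. Laptm5, a lysosomal protein of blood cells, differed by 0.03 and -0.02, and its second probe set gave 0.17 and 0.08.

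By brightest probe set, the lysosomal enzymes and their activators showed differences of at most 0.17 in size. None of the 10 was called in either medium with or without the block. In GCM LN18 the differences ran from -0.17 for Sgsh, a sulfatase that degrades heparan sulfate, to 0.05 for Acp5, the tartrate-resistant acid phosphatase, and 9 of 10 were below 0 with a median of -0.06. Acp5 was close to the array median, with a control mean of 3.69. Gusb, the beta-glucuronidase, had signals in GCM LN18 (10.98 ± 0.03) below those in control (11.08 ± 0.03; SD, n = 3), with a difference of -0.09 and limma adjusted p = 0.571. The differences were -0.12 for Gla, the alpha-galactosidase A, -0.06 for Hexa, the alpha subunit of beta-hexosaminidase, and -0.07 for Naglu, an enzyme of heparan sulfate breakdown. Dimmer probe sets gave -0.27 for Gla and 0.02 for Sgsh in GCM LN18. Psap, the precursor of the saposins, had a difference of 0.00 with a 95% interval from -0.12 to 0.12. The peptidase genes Tpp1 and Ctsa each differed by -0.05 and the acid phosphatase gene Acp2 by -0.02. In GCM U87 the range was from -0.13 to 0.02, with 8 of 10 below 0 and a median of -0.03.

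Tecpr1 had the lowest adjusted p of the 34 genes. It encodes a protein of autophagosomes and lysosomes that binds the ATG12-ATG5 conjugate. Its signals were 8.37, 8.08 and 8.11 in control, 7.26, 7.25 and 7.46 in GCM LN18 and 7.35, 7.64 and 7.40 in GCM U87. The lowest control array was above the highest treated array. In GCM LN18 Tecpr1 fell by 0.86 log2 units (SE 0.11, limma adjusted p = 0.0237, or 0.00298 without the block), to 0.550-fold of control. In GCM U87 the difference was -0.72 (SE 0.11), with adjusted p = 0.105, or 0.0170 without the block. A second probe set gave -0.79 and -0.65, and the remaining dim one, with a mean signal of 2.46, gave -0.10 and -0.10. The call in GCM LN18 was lost when any one of the GCM LN18 arrays was left out, with adjusted p = 0.113 for replicate 1, 0.184 for replicate 2 and 0.0566 for replicate 3, and without control replicate 3 (0.0515), while the difference stayed between -0.96 and -0.81 in these fits. Its promoter window has no CACGTG. The 250 bases before its start (chr5:144223616-144223865, minus strand) are shown as those of the gene with the clearest decrease, with both CANNTG motifs in capitals, of which CATGTG is one. CANNTG occurs in 66.2% of all such stretches, and CATGTG on either strand in 12.3%.
Tecpr1: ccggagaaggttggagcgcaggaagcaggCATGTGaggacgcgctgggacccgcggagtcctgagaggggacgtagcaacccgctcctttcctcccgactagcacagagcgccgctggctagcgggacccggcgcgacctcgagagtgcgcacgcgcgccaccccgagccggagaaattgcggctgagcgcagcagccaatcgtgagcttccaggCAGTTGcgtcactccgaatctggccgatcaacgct

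Uvrag, which acts in the maturation of autophagosomes and endosomes, had mean signals of 8.22 ± 0.07 in control, 8.11 ± 0.01 in GCM LN18 and 8.18 ± 0.06 in GCM U87 (SD, n = 3). Its differences were -0.12 and -0.04.

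**Figure D4:**
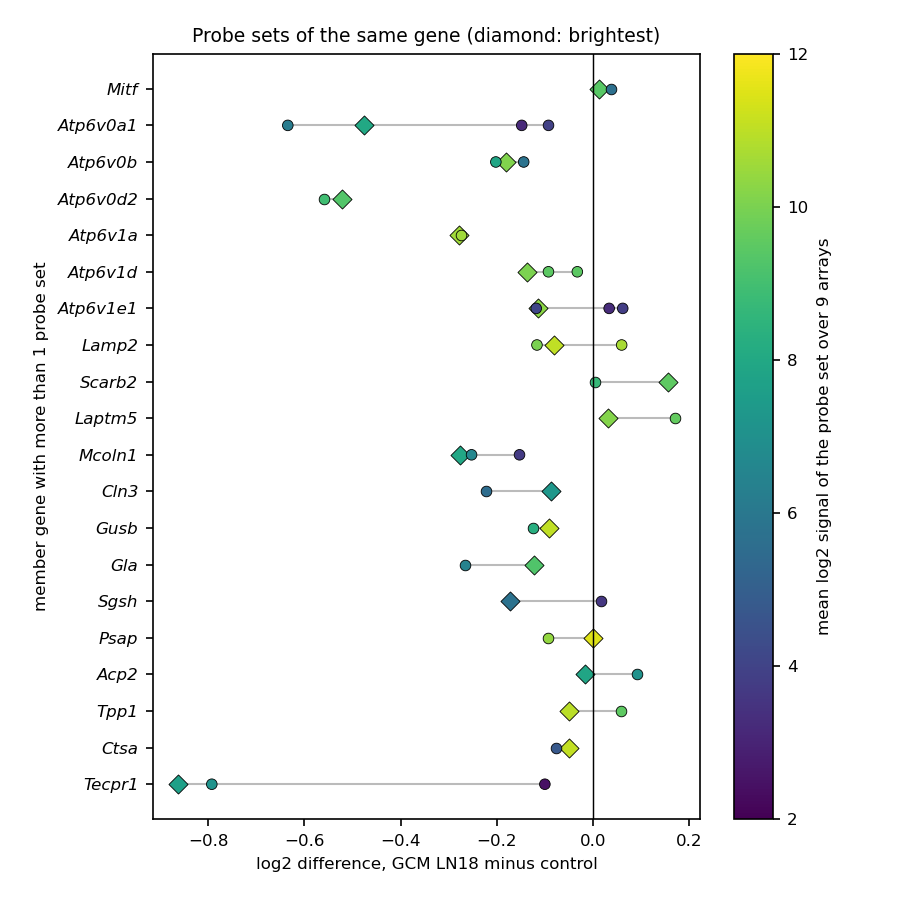
Log2 difference between GCM LN18 and control for each probe set of the 20 genes with more than 1, coloured by mean signal over the 9 arrays, with diamonds for the brightest probe set, which stands for the gene elsewhere. In 15 of the 20 genes all probe sets have the same sign, and the dim probe sets of Tecpr1 and Atp6v0a1 lie nearer to 0 than the bright ones.

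Probe sets of the same gene mostly had the same direction. The 34 genes had 63 probe sets, of which 50 gave a difference below 0 in GCM LN18, and 14 genes had a single one. The 5 genes with probe sets on both sides of 0 were Acp2, Atp6v1e1, Lamp2, Sgsh and Tpp1. Both probe sets of Atp6v0d2 and both of Atp6v1a were close to each other.

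Replicate number 1 held the largest decreases. Of the 34 genes, 22 had their lowest difference in replicate 1 in GCM LN18 and 26 in GCM U87, and both media share the control array of that number. How often this was so over all genes was not counted. In GCM LN18, 33 of 34 differences were below 0 in replicate 1, 27 in replicate 2 and 29 in replicate 3, with medians of -0.14, -0.06 and -0.10. In GCM U87 these counts were 32, 20 and 22, with medians of -0.14, -0.03 and -0.05. Over all genes, between 47.3% and 52.1% were below 0 within any replicate number and medium. Membrane proteins and enzymes as 1 set of 16 depended on replicate 1 in GCM U87: 13 of 16 were below 0 over all replicates and 8 of 16, with a median of 0.00, without it. In GCM LN18, 10 of these 16 were below 0 without replicate 1. The V-ATPase genes had medians of -0.12 in GCM LN18 and -0.08 in GCM U87 when replicate 1 was left out.

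**Figure D5:**
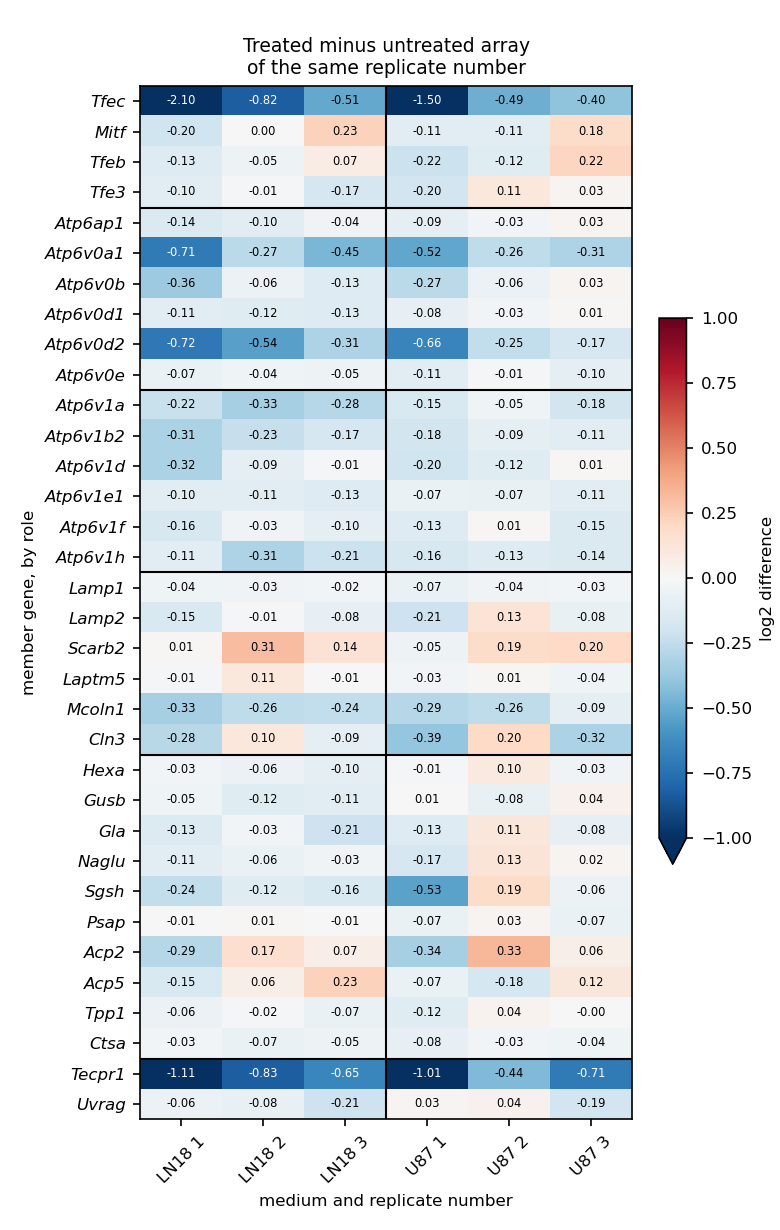
Log2 difference between each treated array and the control array of the same replicate number for the 34 genes, grouped by role with horizontal lines between groups; blue is lower and red higher than control, and the colour scale ends at 1 in either direction. V-ATPase rows are blue in all 3 LN18 columns, and replicate 1 is the bluest column of each medium.

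Between the media no member was called, as no gene at all was with the block (0% of genes) and 1 gene, or 0.00585%, without it. In limma's test with the block, 1 of 34 members had an unadjusted p under 0.05 (5.06% of all genes), and without the block 3 of 34 had one (12% of all genes). The first was Atp6v1a, with a difference of -0.15 between GCM LN18 and GCM U87 and a limma adjusted p = 0.926. The LN18 mean was the lower of the 2 for 24 of 34 members and 11 of 12 V-ATPase genes, against 50.2% of all genes. The 95% intervals of the differences between media were at most 0.59 to either side. For Tecpr1 the interval ran from -0.40 to 0.12, for Atp6v0a1 from -0.30 to 0.08 and for Tfec from -0.94 to 0.24, so the data do not show that both media act alike.

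Of 138 other measured genes of the same pathways, 1 was called with the block in GCM LN18, or 0.725%, against 0.877% of all genes in either direction, and none in GCM U87. That gene, Flcn, or folliculin, which with its partners acts on the Rag GTPases that recruit mTORC1 to lysosomes, fell by 0.49 log2 units in GCM LN18 (SE 0.08, limma adjusted p = 0.0408, or 0.00487 without the block), with signals of 7.75, 7.66 and 7.69 in control, 7.14, 7.16 and 7.33 in GCM LN18 and 7.49, 7.57 and 7.36 in GCM U87. Control and treated arrays of Flcn did not overlap. The call of Flcn was lost without each of control replicates 1 (adjusted p = 0.0940), 2 (0.0701) and 3 (0.0910), GCM LN18 replicates 1 (0.195), 2 (0.267) and 3 (0.0660) and GCM U87 replicate 1 (0.0805). It was 1 of 17 measured genes of mTORC1 at the lysosome, of which 11 were below 0 in GCM LN18 with a median of -0.08. Without the block, Rragc, one of those Rag GTPases, was also lower, with a difference of -0.30 (limma adjusted p = 0.0825 with the block and 0.00983 without it), as was Tsc1, which restrains mTORC1, with -0.26 (adjusted p = 0.199 and 0.0464). In that fit 3 of the 17 were called lower, against 2.64% of all genes. Of the 138 genes together, 91 were below 0 in GCM LN18 (51.5% of all genes) and 90 in GCM U87 (51.3%). In GCM LN18, 22 of them, or 15.9%, had an unadjusted limma p under 0.05 in the lower direction (6.55% of all genes) and 4 in the higher. All 3 treated arrays there were below all 3 control arrays for 41, or 29.7% (12.8% of all genes), and above them for 12. Without the block, 8 of the 138 were called lower and 1 higher.

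The 13 other measured V-ATPase genes, among them isoforms of other tissues, had 8 differences below 0 in GCM LN18 and 9 in GCM U87, with medians of -0.05 and -0.02 and no call in either fit. Of 29 other lysosomal enzymes, 20 were below 0 in GCM LN18 with a median of -0.06 and no call, and 18 in GCM U87, where Man2b2 alone was lower without the block (-0.19, limma adjusted p = 0.365 with it and 0.0486 without it). Without the block, 0.708% of all genes were called lower in GCM U87. The 13 cathepsins, including Ctsa, had 7 differences below 0 in GCM LN18 and 5 in GCM U87, with medians of -0.03 and 0.03 and no call. Of 23 other lysosomal membrane proteins, 19 were below 0 in GCM LN18 and 18 in GCM U87, each with a median of -0.06. Without the block, 3 of these 23 were called lower in GCM LN18, against 2.64% of all genes. They were Mcoln3, a channel related to Mcoln1 (-0.69, limma adjusted p = 0.0951 with the block and 0.0264 without it), Cd164, a sialomucin (-0.40, 0.0589 and 0.00844), and Clcn7, the chloride and proton exchanger of lysosomes (-0.37, 0.0825 and 0.0135). Clcn6, another member of that exchanger family, was lower in GCM U87 without the block (-0.38, adjusted p = 0.198 with it and 0.0309 without it). The 9 genes of mannose 6-phosphate tagging and sorting had 7 differences below 0 and the 35 of the autophagy machinery 20 in GCM LN18, with medians of -0.11 and -0.01. In these 2 lists, calls in GCM LN18 were made only without the block, for Vps29 of the retromer (-0.14, adjusted p = 0.324 with the block and 0.0464 without it), Gabarapl1, which attaches to autophagosome membranes (-0.41, 0.129 and 0.0327), and Wipi1, which binds phosphoinositides on them and was higher (0.31, 0.0899 and 0.0136). In GCM U87 neither list had a call. Without the block, 5.23% of all genes were called in either direction in GCM LN18.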

How the data were processed

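RNA of 9 microglia samples, 3 per group by the deposited labels, was measured on single-colour arrays (Affymetrix MG-430 PM strips). The deposited table gives, for 45141 probe sets, log2 signals that the authors had normalized. How the background was corrected and the probes were summarized is not given in the sources used here. The submitters' notes name limma. Control probe sets (104) were left out. Of the other 45037, 28898 carry 1 symbol in the platform annotation, 551 carry several and 15588 are unnamed here, and 28689 were matched to current symbols by gene identifier. The brightest probe set stood for each of 17097 genes.

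Group means and the replicate number as a block were fitted over all 9 arrays with limma 3.58.1 in R 4.3.3, and p-values were adjusted by Benjamini-Hochberg over all genes. The block was used because the replicate means had been made equal before deposit. The labels do not tie a replicate number to 1 culture across the groups. Since the equal means fix how arrays of a number deviate together, no correlation was computed to test this. Means are given ± SD. Intervals are 95% intervals of limma's fit for single genes. Arrays have no read depth, and their number limits the precision. The fits were tested on simulated data. Promoter windows and their coordinates are from RefSeq (GRCm38.p6).

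The members, and the lists of further genes, were chosen with earlier results of these data known. All members may be named. Members past the test in either fit are given with every array, and of the other lists at most 3 genes were named, those called with the largest change in GCM LN18, with the block first. Rragc and Tsc1, called only without the block, and Man2b2 and Clcn6, called in GCM U87 alone, were named after their values were seen. Alternatives were the fit without the block, another variance prior, a filter on dim genes, other ways to represent a gene, only the groups compared, quantile normalization, median centring, array weights, and arrays or replicate numbers left out.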

Additional observations from a re-analysis of the deposited data

How the results depend on the processing

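In GCM LN18, Tecpr1, Atp6v0a1 and Flcn kept their direction under the 21 alternatives, and the number of arrays, 3 per group, limits the precision. In GCM LN18, 150 genes and 2 members were called. Without the replicate block these were 894 and 8, and the block changed the call of each of the 6 members named above, and of Tecpr1 and Atp6v0a1 in GCM U87, where the count of members went from 0 to 2 and that of genes from 8 to 259. Between the media 1 gene was called without the block and none with it. With only the groups compared, 89 genes and 1 member were called in GCM LN18 and 0 genes in GCM U87. Array weights gave 265 and 4 genes. A variance prior with trend and robust estimation gave 5 members in GCM LN18 (Atp6v0d2, Atp6v1a and Atp6v1b2 were added) and 21 genes in GCM U87. Quantile normalization gave 1 member in GCM LN18 and 3 genes in GCM U87. In GCM U87, 3 genes were called above the median level, 5 with the mean of a gene's probe sets and 3 with the most variable one. Leaving out arrays or replicate numbers gave 2 to 179 genes and 0 to 2 members in GCM LN18, and 0 to 10 genes and 0 members in GCM U87. The adjusted p of Tecpr1 in GCM LN18 ranged from 0.00298 to 0.184 and that of Atp6v0a1 from 0.00636 to 0.260. The counts of members below 0 with a replicate number left out were chosen after seeing the data. The causes of these changes were not tested.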
